A study of Homo sapiens with 21 samples.

Results

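Wild-type SH-SY5Y cells treated with PALBO were compared with wild-type SH-SY5Y cells treated with AG494. All arrays whose titles name the wild-type line and either compound were used, which gave 3 PALBO arrays and 3 AG494 arrays, 6 of the 21 arrays of the series. SH-SY5Y is a human neuroblastoma line, derived from the sympathetic nervous system, that is widely used as a model of neurons. Both groups had first received retinoic acid (10 µM) and brain-derived neurotrophic factor (50 ng/mL) for 3 to 4 days to differentiate, and then the compound for 72 h, carried in 0.1% DMSO. Wild-type cells kept with 0.1% DMSO alone (3 arrays) are shown beside them as vehicle. The series also holds wild-type cells given NOSCA and APP-V717F cells given DMSO, AG494 or NOSCA, again 3 arrays each. APP-V717F, a change in the amyloid precursor protein, causes an inherited form of Alzheimer's disease, and the labels do not say whether the mutated line is 1 clone.

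AG494 inhibits the tyrosine kinase of the EGF receptor. The labels do not spell out PALBO, and they give no dose of either compound, so that differences of compound and of dose cannot be told apart. Arrays were paired by the run of their title numbers (1-10, 11-20 and 21-30), each of which holds 1 array of every group, and are called run 1, run 2 and run 3. The series describes 3 independent experiments without saying which arrays belong to each. P-values therefore measure the spread between these arrays only.

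A cell enters S phase when kinases of the D-type and E-type cyclins phosphorylate the retinoblastoma protein and its relatives, which releases E2F factors to switch on the genes of DNA replication. In resting cells the genes of mitosis are kept off by the DREAM complex, which binds a short promoter sequence named the cell cycle genes homology region (CHR), often next to CCAAT boxes that the activator NF-Y reads. Neuroblastoma cells given retinoic acid slow their division, grow neurites and make more of the transcripts of the neuronal cytoskeleton and of transmitter release. The transcription factors p53, which answers DNA damage, and NF-kappaB, which answers inflammatory signals, each govern sets of genes that are also described here.

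Because the results turn on the genes of replication and mitosis, 4 of their promoters are shown first, as the 250 bases before the RefSeq start site (build GRCh38.p14), in the direction of transcription. They belong to the called members with the lowest p that have 1 start site in the RefSeq table and hold the letters in question. In CDC20 (activator of the anaphase-promoting complex; chr1:43358731-43358980, plus strand) and KIF23 (a kinesin needed to separate daughter cells; chr15:69414099-69414348, plus strand), capitals mark the CHR letters TTTGAA and the CCAAT letters on either strand. In GINS2 (a subunit of the replicative helicase; chr16:85688955-85689204, minus strand) and CDT1 (which loads that helicase; chr16:88803539-88803788, plus strand), capitals mark the E2F core letters, TTCCCGC or TTGGCGC, and CCAAT, on either strand.
CDC20: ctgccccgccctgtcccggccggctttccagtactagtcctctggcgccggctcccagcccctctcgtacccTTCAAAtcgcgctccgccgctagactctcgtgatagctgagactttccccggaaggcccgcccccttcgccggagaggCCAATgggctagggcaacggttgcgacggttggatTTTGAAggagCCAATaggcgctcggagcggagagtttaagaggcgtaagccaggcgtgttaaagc
KIF23: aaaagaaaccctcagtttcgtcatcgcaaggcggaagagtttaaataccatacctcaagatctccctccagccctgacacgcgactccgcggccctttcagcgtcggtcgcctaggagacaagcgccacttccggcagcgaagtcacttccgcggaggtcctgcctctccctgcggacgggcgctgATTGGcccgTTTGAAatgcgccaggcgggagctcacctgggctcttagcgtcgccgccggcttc
GINS2: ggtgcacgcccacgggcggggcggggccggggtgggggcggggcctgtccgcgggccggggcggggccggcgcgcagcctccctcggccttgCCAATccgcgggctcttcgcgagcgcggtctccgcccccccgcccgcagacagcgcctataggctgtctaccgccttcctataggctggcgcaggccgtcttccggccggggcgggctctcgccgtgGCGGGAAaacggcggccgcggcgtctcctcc
CDT1: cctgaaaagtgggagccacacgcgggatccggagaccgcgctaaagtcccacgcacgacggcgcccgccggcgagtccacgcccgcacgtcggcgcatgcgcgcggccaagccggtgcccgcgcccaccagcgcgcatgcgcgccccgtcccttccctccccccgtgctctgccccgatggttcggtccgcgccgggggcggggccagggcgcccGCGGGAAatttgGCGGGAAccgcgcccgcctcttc
In KIF23 the CHR letters begin 55 bases before the start and the CCAAT letters 64 bases before it. CDC20 holds CHR letters 178 and 65 bases before its start and CCAAT letters 100 and 55 bases before it. GINS2 holds 1 E2F core 31 bases before its start, and CDT1 holds 2, at 35 and 23 bases.

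The same letters were counted in the 300-base RefSeq windows, 250 bases before to 50 bases after the start, on both strands. Of 14425 measured genes with a window, 15.9% held TTTGAA, 42.4% held CCAAT and 15.2% held an E2F core. Among the 37 mitosis genes with a window, 70.3% held TTTGAA, 78.4% held CCAAT and 18.9% held an E2F core. Among the 40 replication genes the shares were 7.5%, 62.5% and 75%. Replication-dependent histone genes (50 with a window) held CCAAT in 90% and TTTGAA in 38%. Presynaptic genes, 25 with a window, held TTTGAA in 4%, CCAAT in 20% and an E2F core in 12%. A gene with several windows counted when any of them held the letters, and the letters TTGGCGC and ATTGG can share bases. A match describes the letters and not a binding event.

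**Figure D1:**
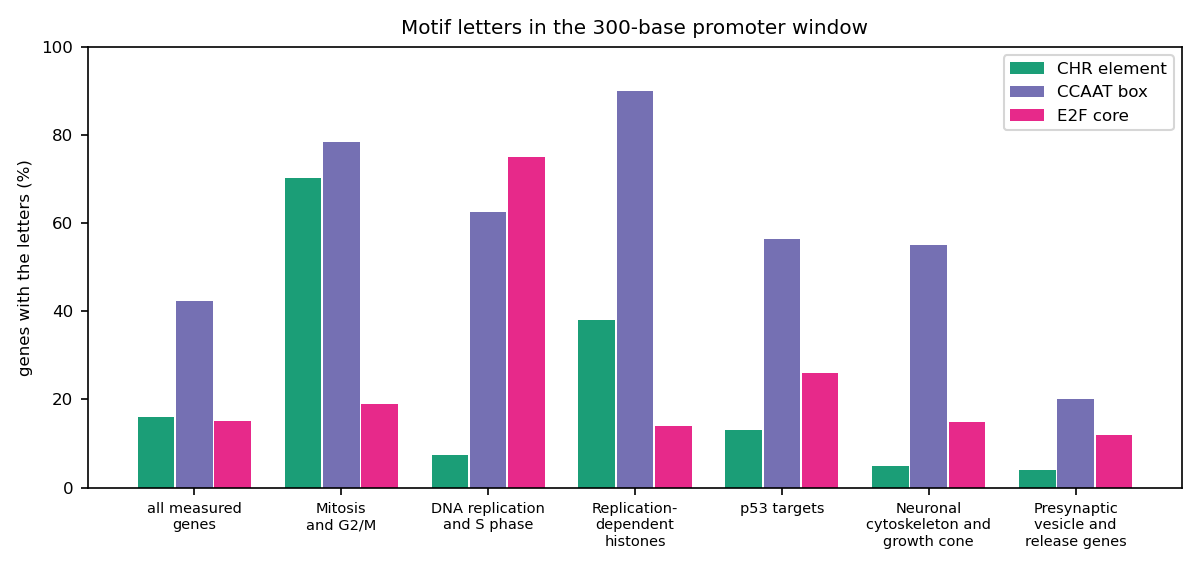
Share of genes (%, bars from 0) whose 300-base RefSeq promoter window holds the CHR letters, the CCAAT box or an E2F core, for all measured genes and 6 gene lists. The CHR bar stands at 70.3% in the mitosis list against 15.9% over all genes, and the E2F bar at 75% in the replication list against 15.2%.

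Values are log2 intensities, and array medians over all 21 arrays lay between 7.877 and 8.030. The labelled cell type was checked first: DBH, which makes noradrenaline, lay between 13.17 and 13.35 on the 6 arrays, and the noradrenergic transcription factors PHOX2A and HAND2 at 12.12 to 12.35 and 12.61 to 12.78. Of 28 measured noradrenergic markers, 24 lay above the median gene. TH, the rate-limiting enzyme of catecholamine synthesis, was lower and uneven, at 7.04 to 9.28. Of 16 immune cell markers 0 lay above the median gene, and PTPRC, the pan-leukocyte marker, was at 4.79 to 5.17. Of 12 Schwann cell and glial markers 2 lay above it, and the mean of that list was 6.74 to 6.76 under AG494 and 6.83 to 6.86 under PALBO. 1 glial marker differed between the groups, S100B, a calcium-binding protein, by 0.89 (SE 0.13, adjusted p = 0.00037). In bulk RNA, fewer cells of a type and less RNA per cell cannot be told apart.

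Of 18132 genes, 1577 (8.7%) differed between PALBO and AG494 at an adjusted p under 0.05. Under PALBO 860 genes (4.74%) were lower, and the rest, 3.95% of all genes, were higher. The median size of a called difference was 0.383 on the log2 scale, and 290 genes (1.6%) differed by at least 1.5-fold, 118 (0.651%) higher and 172 (0.949%) lower. A difference of at least 2-fold was found for 46 genes, 23 in each direction. The median over all genes was 0.01. Without the run in the fit 589 genes were called, 37.0% of them higher under PALBO. Leaving out the AG494 array of run 1 gave 890 calls, and leaving out the PALBO array of run 3 gave 974. Without the PALBO array of run 2 the count of rises was 394.

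Set against vehicle in the same fit, 2729 genes (15.1%) were called under PALBO and 358 (1.97%) under AG494. Both comparisons use the same DMSO arrays, and each shares its compound arrays with the comparison of the compounds, so they are given only to show on which side of vehicle a gene lies. The AG494 count was 46 without the run in the fit, 595 with a trended and robust prior, 174 without the AG494 array of run 2 and 79 without that of run 3. The PALBO count was 1265 without the run in the fit.

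**Figure D2:**
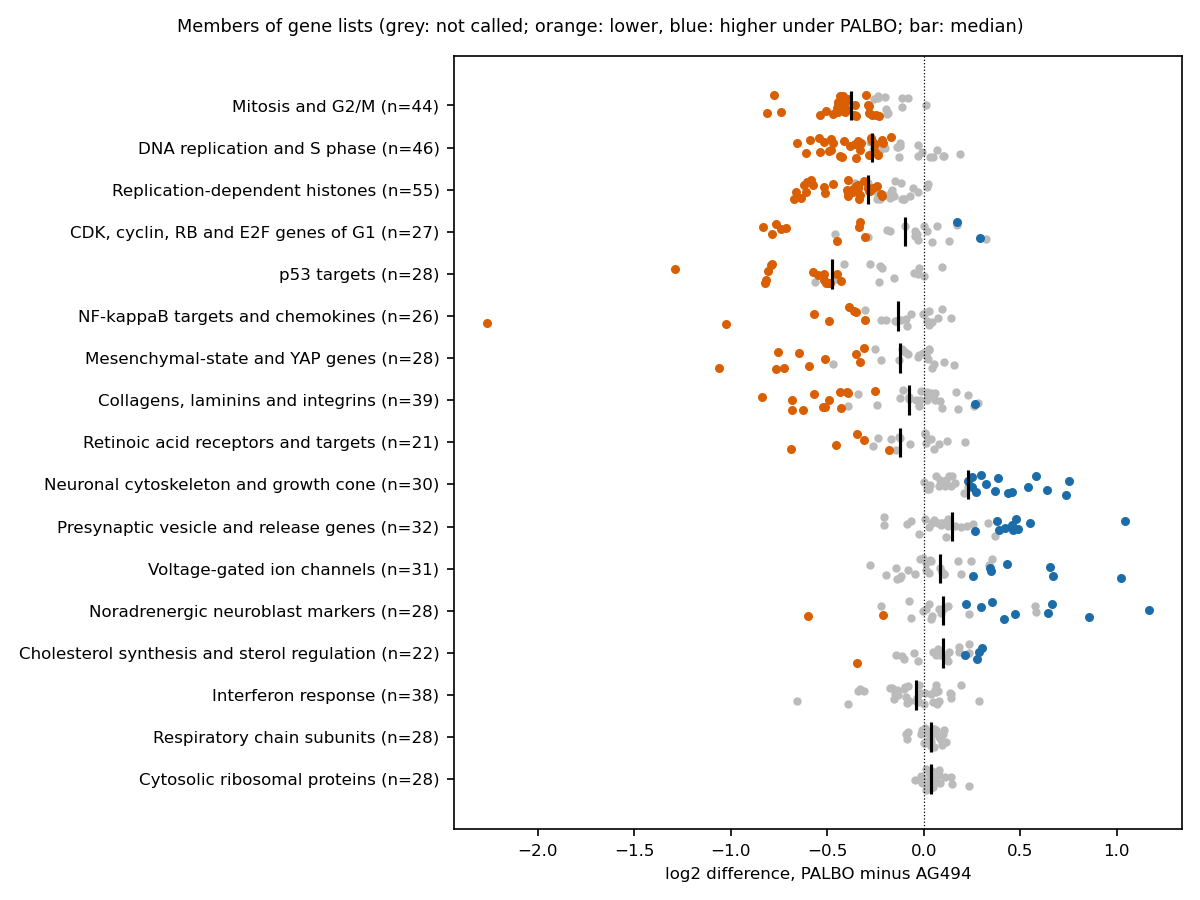
Log2 difference between PALBO and AG494 for the members of 17 gene lists (x axis), 1 point per gene, with the list's median as a black bar. The mitosis, replication and histone lists lie left of 0 with medians of -0.38, -0.27 and -0.29, and the neuronal cytoskeleton list lies right of it with a median of 0.23.

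Genes of the G1 machinery differed in part. Of 27 measured cyclin, CDK, RB and E2F genes, 9 were lower under PALBO (4.74% of all genes) and 2 higher (3.95% of all genes). The median was -0.10. CDK4, a partner of D-type cyclins, differed by -0.10 (95% interval -0.24 to 0.05), and CDK6 by 0.04 (-0.08 to 0.16). RB1, the retinoblastoma protein, differed by 0.00 (-0.15 to 0.15), and E2F1 by -0.18 (-0.35 to 0.00), neither past the threshold. The falls were CDK2, its partner CCNE2, the RB relative RBL1, the E2F factors E2F2, E2F7 and E2F8, their partner TFDP1, and the CDK inhibitors CDKN1A and CDKN1B.

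E2F7, a repressor that closes the E2F programme late in S phase, was at 9.22, 9.23 and 9.20 under AG494 in runs 1 to 3 and at 8.40, 8.46 and 8.29 under PALBO. The groups did not overlap, and the difference was -0.84 (SE 0.07, adjusted p = 2.3e-06). CCNE2, an E-type cyclin, fell by 0.76 from 9.75, 9.65 and 9.53 to 8.99, 8.84 and 8.82, with an adjusted p of 0.00019. Its relative CCNE1 moved the other way, by 0.29 (SE 0.06, adjusted p = 0.0057). RBL1, the RB relative p107 of the DREAM complex, was at 8.86, 8.62 and 8.80 under AG494 and 8.10, 8.05 and 8.00 under PALBO, a difference of -0.71 (SE 0.11, adjusted p = 0.00069). E2F8 fell by 0.74 (adjusted p = 0.00042). CCND1, the main D-type cyclin, was higher by 0.17 (SE 0.05, adjusted p = 0.045), a call that was lost when any 1 of the 6 arrays was left out (adjusted p 0.059 to 0.21).

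Many genes of DNA replication were lower under PALBO. Of 46 measured, 28 fell and the other 18 did not pass the test, against a fall in 4.74% of all genes, and the median was -0.27. PCNA, the sliding clamp of the replication fork, lay at 11.55, 11.34 and 11.40 under AG494 and at 11.00, 10.84 and 11.01 under PALBO. Every PALBO array was below every AG494 array, and the difference was -0.48 (SE 0.05, adjusted p = 2.7e-05). GINS2, shown above with its E2F core, was at 11.57, 11.58 and 11.51 under AG494 and 10.96, 11.05 and 10.82 under PALBO, a difference of -0.61 (SE 0.08, adjusted p = 0.00015). CDT1, with 2 such cores, fell by 0.66 from 10.24, 10.42 and 10.43 to 9.70, 9.81 and 9.59 (adjusted p = 0.00018).

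The fall covered initiation, polymerases and precursor supply. PRIM1, the primase, differed by -0.59 (SE 0.08, adjusted p = 0.00018) and POLA2, its partner subunit of DNA polymerase alpha, by -0.54 (SE 0.07, adjusted p = 9.6e-05). ORC1 of the origin recognition complex fell by 0.49, CLSPN of the fork checkpoint by 0.48, and TK1 and TYMS of thymidylate synthesis by 0.47 and 0.43. Of the MCM helicase, MCM2, MCM4 and MCM6 fell by 0.27, 0.24 and 0.33. Its other subunits, MCM3, MCM5 and MCM7, were each at -0.13 and did not pass the test (adjusted p = 0.37, 0.59 and 0.13). Against vehicle, 28 of the 46 genes were lower under PALBO, where 7.35% of all genes were, and the list's median was -0.28. Under AG494 that median was 0.00. Without the AG494 array of run 1 the count was 17, and without the run in the fit 16.

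Most measured genes of mitosis were lower under PALBO too. Of 44 measured, 32 fell and 12 did not pass the test, against a fall in 4.74% of all genes. Of the 44, 43 had a negative difference, with a median of -0.38. KIF20A, a kinesin of the late mitotic spindle, was at 10.77, 10.70 and 10.29 under AG494 and 9.74, 9.95 and 9.63 under PALBO. The groups did not overlap, and the difference was -0.81 (SE 0.09, adjusted p = 1.8e-05). AURKB, the kinase of the chromosomal passenger complex, was at 11.57, 11.64 and 11.35 and 10.60, 11.03 and 10.59, a difference of -0.78 (SE 0.09, adjusted p = 2.7e-05). MKI67, the proliferation marker Ki-67, fell by 0.74 (adjusted p = 0.00087), from 11.57, 11.45 and 11.18 to 10.39, 10.99 and 10.60. In MKI67 the fall was 1.18 in run 1 and 0.46 and 0.58 in runs 2 and 3.

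CDC20 and KIF23, the other promoters shown, fell by 0.43 and 0.45. CDK1, the mitotic kinase, fell by 0.41, its cyclins CCNB1 and CCNB2 by 0.25 and 0.41, and FOXM1, an activator of mitotic genes, by 0.44. Among the smaller calls were UBE2C, which marks mitotic proteins for destruction, at -0.27, and the spindle bundler PRC1 at -0.23. The list's median difference was -0.53 in run 1, -0.31 in run 2 and -0.25 in run 3. Its mean level was 10.74, 10.60 and 10.47 on the AG494 arrays and 10.21, 10.29 and 10.24 on the PALBO arrays, so the AG494 array of run 1 was the highest. The count of falls was 20 without the AG494 array of run 1 and 23 without the run in the fit.

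Against vehicle, 40 of the 44 mitosis genes were lower under PALBO, where 7.35% of all genes were. Under AG494 6 were lower, where 0.888% of all genes were. The list's medians were -0.57 under PALBO and -0.21 under AG494. KIF20A was -0.38 from vehicle under AG494 (adjusted p = 0.027) and -1.20 under PALBO (adjusted p = 2.3e-07). In APP-V717F cells, which share no array with these, AG494 against vehicle gave calls for 43 of the 44 mitosis genes and 37 of the 46 replication genes, all lower, against 7.06% of all genes. KIF20A differed by -0.77 there (adjusted p = 3.0e-05). A difference of the AG494 response between the genotypes was not tested.

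Replication-dependent histones, made in S phase to package new DNA, were also lower in part. Of 55 measured, 31 fell and 24 did not pass the test, against a fall in 4.74% of all genes, with a median of -0.29. H2AC21 was at 12.23, 12.28 and 11.91 under AG494 and 11.56, 11.58 and 11.25 under PALBO, a difference of -0.68 (SE 0.08, adjusted p = 4.7e-05). H2BC3 fell by 0.64 (adjusted p = 0.0007) and the linker histone H1-3 by 0.61. The count was 15 without the PALBO array of run 3, 18 without the AG494 array of run 2 and 18 without the run in the fit. Histone genes are near-identical copies, so a probe set can read several of them. H2AC25, a histone gene below vehicle under both compounds, was at 9.55, 9.71 and 9.56 under AG494 and 9.47, 9.35 and 9.27 under PALBO, with vehicle at 10.84, 10.69 and 11.42. It did not differ past the threshold between the compounds (-0.25, 95% interval -0.54 to 0.05). Wild-type cells given NOSCA were also below the same vehicle arrays in H2AC25, by 1.15 (adjusted p = 0.0045).

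**Figure D3:**
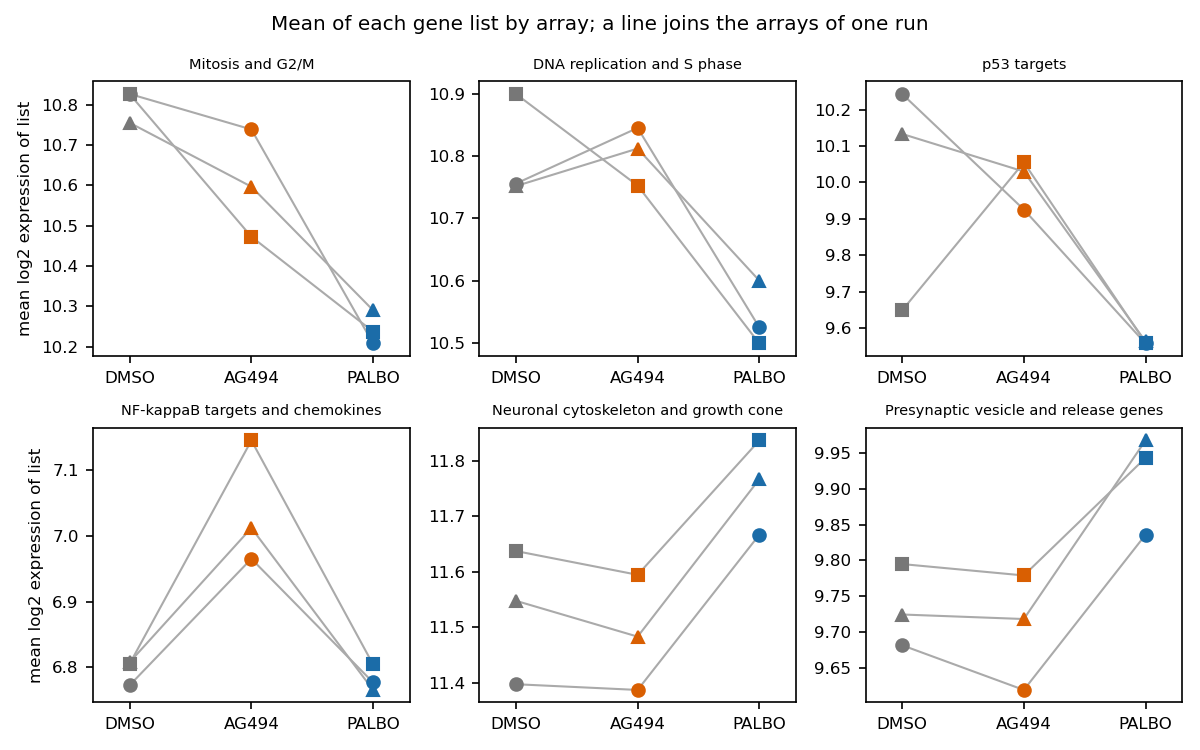
Mean log2 expression of 6 gene lists on each wild-type array under DMSO, AG494 and PALBO, with a line joining the arrays of a run (circle run 1, triangle run 2, square run 3). The mitosis, replication and p53 lists are lowest under PALBO in every run, the NF-kappaB list is highest under AG494, and both neuronal lists are highest under PALBO.

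Many targets of p53 were lower under PALBO. Of 28 measured, 15 fell and 13 did not pass the test, against a fall in 4.74% of all genes. Of the 28, 27 had a negative difference, with a median of -0.47, the largest in size of the 32 lists. EDA2R, a member of the TNF receptor family, was at 9.26, 9.26 and 9.47 under AG494 and at 7.96, 8.07 and 8.09 under PALBO. The groups were more than 1 log2 unit apart, and the difference was -1.29 (SE 0.18, adjusted p = 0.00018). CDKN1A, the CDK inhibitor p21 and the best known p53 target, was at 12.68, 12.80 and 12.94 and 11.94, 12.02 and 12.10, a difference of -0.79 (SE 0.13, adjusted p = 0.0011). The inhibitor p27, CDKN1B, fell by 0.30. DDB2, which recognises ultraviolet damage, fell by 0.81 from 9.65, 9.83 and 9.78 to 8.91, 8.90 and 9.02 (adjusted p = 6.9e-06).

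SPATA18, a mitochondrial quality control protein, differed by -0.82 (SE 0.10, adjusted p = 8.9e-05). POLH, the polymerase that copies past ultraviolet lesions, differed by -0.82 (SE 0.12, adjusted p = 0.00027). PHLDA3, an inhibitor of AKT, fell by 0.79, the cell death genes TNFRSF10B, BAX and PMAIP1 by 0.57, 0.50 and 0.45, and MDM2 and PPM1D, which restrain p53, both by 0.49. The list mean was 9.56 on all 3 PALBO arrays and 9.93, 10.03 and 10.05 under AG494. Under vehicle it was 10.24, 10.13 and 9.65, so the vehicle array of run 3 lay near the PALBO arrays. CDKN1A showed the same, with vehicle at 12.95, 12.97 and 12.25. Against vehicle, 16 of the list were lower under PALBO (7.35% of all genes) and 1 under AG494 (0.888% of all genes). In APP-V717F cells 8 were higher under AG494, where 4.72% of all genes were, with a median of 0.25.

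A minority of the genes of NF-kappaB signalling differed, each of them higher under AG494. Of 26 measured targets and chemokines, 8 were lower under PALBO, where 4.74% of all genes were, and 18 did not pass the test. A positive difference was found for 8 of the 26, and the median was -0.13. Without the run in the fit 5 were lower. Against vehicle, 4 were higher under AG494, where 1.09% of all genes were, and 1 was lower under PALBO, where 7.35% of all genes were. CCL2, a chemokine that attracts monocytes, had the largest difference of all called genes in either direction. It was at 10.61, 10.41 and 10.81 under AG494, at 8.74, 8.12 and 8.18 under PALBO and at 8.44, 8.54 and 7.52 under vehicle. The AG494 arrays lay above all others, and PALBO overlapped vehicle. The difference between the compounds was -2.26 (SE 0.26, adjusted p = 3.2e-05), or 4.80-fold, and AG494 was 2.44 above vehicle (adjusted p = 0.0002).

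VCAM1, an adhesion molecule for leukocytes, was at 8.54, 8.88 and 9.67 under AG494 and 7.49, 7.77 and 8.75 under PALBO. The arrays overlapped between groups, yet AG494 was higher in each run, and the difference was -1.03 (SE 0.17, adjusted p = 0.00099). Without the run in the fit its adjusted p was 0.12. IL32, a cytokine, was at 6.39, 6.47 and 6.27 and 5.81, 5.81 and 5.80, a difference of -0.57 (SE 0.09, adjusted p = 0.00071). IL32 under PALBO lay at the vehicle level, which was 5.77, 5.82 and 5.82. NFKB1, a subunit of NF-kappaB, fell by 0.39, and the inhibitors NFKBIA and TNFAIP3 by 0.36 and 0.31. IRF1, an interferon-related factor, differed by -0.49 (SE 0.09, adjusted p = 0.002), but the mean of its 4 probe sets differed by -0.18 (adjusted p = 0.13).

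Of 38 genes of the interferon response, 0 were called by limma and 5 had an unadjusted p under 0.05, with a median of -0.04. The list does not hold HERC5, the ligase of the ubiquitin-like protein ISG15, which fell by 1.51 (adjusted p = 0.00066). In 4 of the 38 listed genes the arrays did not overlap, all lower under PALBO, where 8.63% of all genes were. GPNMB, a glycoprotein of lysosomes and of injured glia, was likewise highest under AG494. It was at 6.82, 7.16 and 6.63 under AG494, 5.32, 5.51 and 5.96 under PALBO and 5.55, 5.18 and 5.56 under vehicle, and the difference between compounds was -1.27 (SE 0.15, adjusted p = 5.4e-05). In APP-V717F cells AG494 was above vehicle in CCL2 by 1.48 (adjusted p = 0.0011), in VCAM1 by 1.49 (adjusted p = 3.9e-05) and in GPNMB by 1.41 (adjusted p = 2.8e-05). Of the 26 NF-kappaB genes, 13 were called higher there, against 4.72% of all genes. More of the interferon list was called there, with 29 of the 38 genes higher and a median of 0.70. In wild-type cells 2 of the 38 were higher under AG494 than under vehicle, where 1.09% of all genes were.

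**Figure D4:**
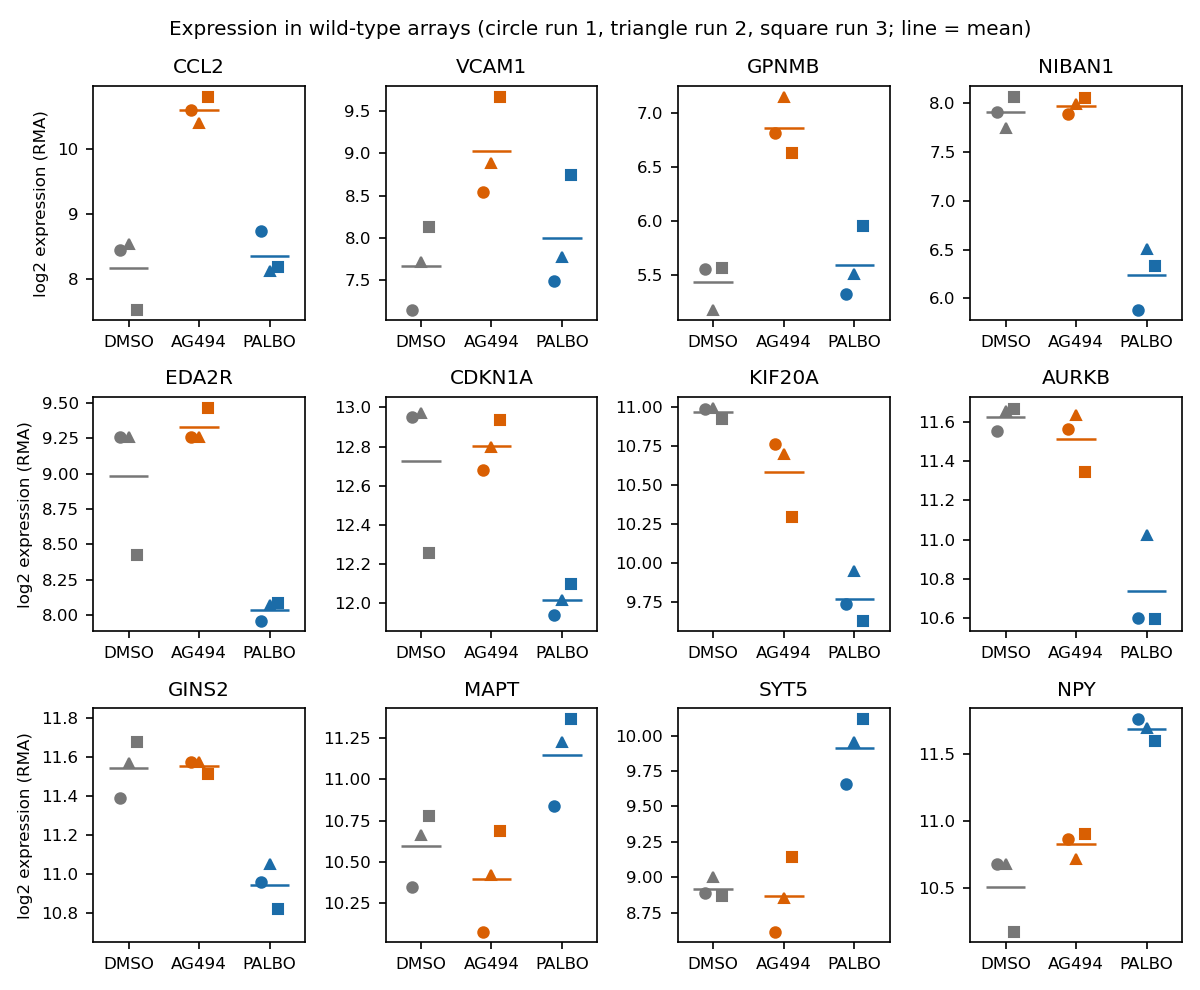
Log2 expression of 12 genes on the 9 wild-type arrays with DMSO, AG494 or PALBO, 1 symbol per array (circle run 1, triangle run 2, square run 3) with the group mean as a line; the y axes differ between panels. CCL2, VCAM1 and GPNMB are highest under AG494, whereas NIBAN1, KIF20A and GINS2 are lowest and MAPT, SYT5 and NPY highest under PALBO.

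Many genes of the neuronal cytoskeleton were higher under PALBO. Of 30 measured, 15 rose and 15 did not pass the test, against a rise in 3.95% of all genes, and 1 of the 30 had a negative difference. The median was 0.23. MAPT, which encodes the microtubule protein tau, was at 10.08, 10.42 and 10.69 under AG494 and 10.84, 11.23 and 11.37 under PALBO. PALBO was higher in each run, and the groups did not overlap. The difference was 0.75 (SE 0.06, adjusted p = 1.7e-06), and all 6 probe sets of the gene had the same sign.

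STMN4, a stathmin that regulates microtubule growth, was at 10.35, 11.14 and 11.59 and 11.50, 11.72 and 12.07, a difference of 0.74 (SE 0.12, adjusted p = 0.00082). KIF5A, a motor of axonal transport, differed by 0.64 (SE 0.10, adjusted p = 0.00041), and its relative KIF5C by 0.32 (SE 0.05, adjusted p = 0.00037). PRPH, the peripheral neuron filament, differed by 0.58 (SE 0.10, adjusted p = 0.001). DCX, of migrating young neurons, rose by 0.54, MAP6 by 0.46 and GAP43, of growth cones, by 0.38. The tubulin TUBB3 rose by 0.29, and MAP2, of dendrites, by 0.25. MAPT kept its call without the run in the fit, whereas KIF5A (adjusted p = 0.081), KIF5C (0.061), STMN4 (0.26) and PRPH (0.21) did not, and the count was then 5. The runs differed as well: the list mean was 11.39, 11.48 and 11.59 under AG494 and 11.67, 11.77 and 11.84 under PALBO. Against vehicle 16 were higher under PALBO, where 7.7% of all genes were, and the median under AG494 was -0.04. In APP-V717F cells 10 were lower under AG494, where 7.06% of all genes were, and MAPT was among them at -0.37 (adjusted p = 0.0004).

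Some genes of transmitter release were also higher. Of 32 presynaptic genes, 10 rose and 22 did not pass the test, against a rise in 3.95% of all genes. A negative difference was found for 5, and the median was 0.14. SYT5, a calcium sensor of vesicles, was at 8.62, 8.85 and 9.15 under AG494 and 9.66, 9.96 and 10.12 under PALBO. The groups were apart by about 1 log2 unit in each run, and the difference was 1.04 (SE 0.12, adjusted p = 2.7e-05). RAB3A, a vesicle GTPase, was at 10.21, 10.43 and 10.38 and 10.83, 10.82 and 10.80, a difference of 0.48 (SE 0.07, adjusted p = 0.00029). SYNGR3, a vesicle membrane protein, differed by 0.55 (SE 0.09, adjusted p = 0.00059). SYP and SYN1, widely used vesicle markers, rose by 0.42 and 0.38, and STX1A and CPLX1 of the fusion machinery both by 0.46. Without the run in the fit 4 of these calls stood, and SYN1 (adjusted p = 0.061) and SYT4 (0.065) were among those lost.

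Among 31 voltage-gated ion channels, 7 rose and 24 did not pass the test, against a rise in 3.95% of all genes. The median was 0.08. SCN4B, a sodium channel subunit that the list does not hold, fell by 1.15 (adjusted p = 0.0015). CACNA1B, the pore of the N-type calcium channel that drives transmitter release, was at 8.42, 8.51 and 8.80 under AG494 and 8.95, 9.29 and 9.50 under PALBO, a difference of 0.67 (SE 0.10, adjusted p = 0.00029). CACNB1, an auxiliary calcium channel subunit, differed by 0.65 (SE 0.08, adjusted p = 7.5e-05). CACNA2D3, another, differed by 1.02 (SE 0.19, adjusted p = 0.0025), and its adjusted p was 0.16 without the run in the fit. The count was 3 without the AG494 array of run 1, 4 without the PALBO array of run 1 and 2 without the run in the fit.

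Noradrenergic genes were higher in part, with 9 of 28 up (3.95% of all genes) and 2 down (4.74% of all genes). The median was 0.10. CHGA, the core protein of dense vesicles, was at 12.21, 12.07 and 12.17 under AG494 and 12.82, 12.74 and 12.82 under PALBO. Every PALBO array lay above every AG494 and vehicle array, and the difference was 0.64 (SE 0.05, adjusted p = 2.1e-06). NPY, a peptide released with noradrenaline, was at 10.86, 10.72 and 10.90 and 11.77, 11.69 and 11.60, a difference of 0.86 (SE 0.12, adjusted p = 0.0003). SLC18A2, the vesicular monoamine transporter, was at 8.78, 8.14 and 7.27 and 9.56, 9.53 and 8.60. The groups overlapped, and PALBO was higher in each run. The difference was 1.17 (SE 0.20, adjusted p = 0.00099), and the adjusted p was 0.29 without the run in the fit.

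MAOA, which degrades monoamines, rose by 0.47 and SLC6A2, the noradrenaline transporter, by 0.42. The adjusted p of SLC6A2 was 0.06 without the PALBO array of run 2, 0.064 without the AG494 array of run 2 and 0.18 without the run in the fit. LMO3, a transcriptional cofactor of the noradrenergic state, and MEIS2 fell by 0.60 and 0.21, calls that were both lost without the PALBO array of run 2 or run 3, the AG494 array of run 1 or run 2, or the run in the fit. The count of rises was 4 without the PALBO array of run 2, 5 without that of run 1, 5 without the AG494 array of run 2 and 3 without the run in the fit.

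Some genes of the mesenchymal neuroblastoma state and of YAP were lower under PALBO. Of 28 measured, 10 fell and 18 did not pass the test, against a fall in 4.74% of all genes, and 8 of the 28 had a positive difference. The median was -0.12, and the list mean was 8.15 to 8.21 under AG494 and 7.88 to 7.94 under PALBO. SOX9, a factor of neural crest and cartilage, was at 9.77, 9.96 and 9.76 under AG494 and 8.67, 8.84 and 8.80 under PALBO. The groups did not overlap, and the difference was -1.06 (SE 0.14, adjusted p = 0.00017). YAP1, the coactivator of the Hippo pathway, was at 8.70, 8.62 and 8.68 and 7.93, 7.90 and 7.91, a difference of -0.76 (SE 0.09, adjusted p = 4.7e-05). CCN1, a secreted YAP target, differed by -0.65 (SE 0.07, adjusted p = 2.7e-05). NOTCH2 fell by 0.60, IL13RA1 by 0.77 and VIM, the mesenchymal filament vimentin, by 0.33. Outside the list, and among the 12 largest falls, ACTA2, smooth muscle actin, fell by 1.33, from 9.22, 9.55 and 9.81 to 7.88, 8.37 and 8.34 (adjusted p = 0.0011), with 2 of its 3 probe sets of that sign.

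Matrix genes moved the same way in part. Of 39 collagens, laminins, integrins and other matrix genes, 13 fell (4.74% of all genes) and 1, AGRN, rose (3.95% of all genes). The median was -0.08. COL1A1, the main chain of type I collagen, was at 10.21, 10.30 and 10.22 under AG494 and 9.72, 9.67 and 9.28 under PALBO, a difference of -0.69 (SE 0.09, adjusted p = 0.00017). FN1, fibronectin, was at 12.82, 12.71 and 12.72 and 12.36, 12.25 and 12.10, a difference of -0.51 (SE 0.06, adjusted p = 7.4e-05). NID2 and NID1, of basement membranes, fell by 0.63 and 0.43, VCAN by 0.49, and HSPG2, perlecan, by 0.84. LAMA1, a laminin chain outside the list, was among the 12 largest falls at -1.19 (SE 0.16, adjusted p = 0.00013). Without the AG494 array of run 1 the list had 7 falls, and without the run in the fit 8.

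Retinoic acid, which all cultures received, acts through nuclear receptors. Of 21 receptors and targets 5 fell and 16 did not pass the test, against a fall in 4.74% of all genes, with a median of -0.12. HOXD4, a homeobox gene that retinoic acid induces, was at 8.43, 8.88 and 8.49 under AG494 and 7.87, 8.02 and 7.85 under PALBO, a difference of -0.69 (SE 0.09, adjusted p = 7.9e-05). The receptors RXRA, RARG and RARB fell by 0.35, 0.31 and 0.18, and TGM2, a transglutaminase induced by retinoic acid, by 0.46. HOXD4 kept its call under every alternative run. RARG and TGM2 lost theirs without the PALBO array of run 3 (adjusted p 0.066 and 0.065), RARG also without the AG494 array of run 3 (0.091), and TGM2 without that of run 1 (0.052). RARB lost its call without any of 5 arrays (0.054 to 0.14). Without the PALBO array of run 3 the list had 2 falls, without the AG494 array of run 3 it had 3, and without the run in the fit 2.

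The EGF receptor family, to which the target of AG494 belongs, had 2 falls among 16 receptors and ligands, where 4.74% of all genes fell, and 14 did not pass the test. The median was -0.10. EGFR was at 11.11, 10.86 and 11.09 under AG494 and 10.85, 10.62 and 10.48 under PALBO, with vehicle at 10.62, 10.66 and 10.97. The difference was -0.37 (SE 0.11, adjusted p = 0.037). It lost its call without the PALBO array of run 2 (adjusted p = 0.077) or run 3 (0.22), without the AG494 array of run 1 (0.15) or run 3 (0.13), and without the run in the fit (0.085). NRG4, a ligand of ERBB4, differed by -0.59 (SE 0.13, adjusted p = 0.0063). It is a dim gene, at percentile 24.3 of all genes, with 6.12, 6.37 and 6.39 under AG494 and 5.53, 5.86 and 5.71 under PALBO. Its 2 probe sets differed by -0.59 and -0.11. ERBB2 differed by -0.07 (95% interval -0.35 to 0.21), ERBB3 by 0.05 (-0.13 to 0.23) and ERBB4 by -0.20 (-0.50 to 0.10), and these differences did not pass the threshold.

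Of 24 genes of ERK output and its feedback, 1 rose and 1 fell, shares near those of all genes. DUSP5, a phosphatase that ERK induces, was at 7.23, 7.50 and 7.77 under AG494 and 8.03, 8.20 and 8.35 under PALBO, a difference of 0.69 (SE 0.13, adjusted p = 0.0018). EPHA2, an ephrin receptor, was at 8.78, 8.82 and 8.78 and 8.25, 8.57 and 8.02, a difference of -0.51 (SE 0.09, adjusted p = 0.0016), and its adjusted p was 0.057 without the run in the fit. Against vehicle, 9 were higher and 1 lower under PALBO (7.7% and 7.35% of all genes), with a list median of 0.20. Under AG494, 4 were higher (1.09% of all genes) and the median was 0.21.

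Some sterol genes were higher under PALBO than under AG494. Of 22 measured, 4 rose and 1 fell, against 3.95% and 4.74% of all genes, with a median of 0.10. NSDHL, an enzyme of late cholesterol synthesis, was at 10.25, 10.22 and 10.17 under AG494 and 10.48, 10.53 and 10.44 under PALBO, with vehicle at 10.46, 10.43 and 10.52. PALBO overlapped vehicle and AG494 lay below both, and the difference between the compounds was 0.27 (SE 0.05, adjusted p = 0.0027). SQLE, squalene epoxidase, differed by 0.29 (SE 0.08, adjusted p = 0.029) and HSD17B7 by 0.30 (SE 0.08, adjusted p = 0.018). TM7SF2, the other rise, differed by 0.22 (SE 0.06, limma adjusted p = 0.036), and its arrays overlapped between the groups. It lay above vehicle by 0.38 under PALBO (limma adjusted p = 0.0004) and by 0.16 under AG494 (0.19). SQLE lost its call without the PALBO array of run 1 (adjusted p = 0.15) or run 2 (0.12) or the AG494 array of run 1 (0.083) or run 3 (0.12). HSD17B7 lost its call without the PALBO array of run 2 (0.099) or the AG494 array of run 2 (0.075) or run 3 (0.081). LBR, a sterol reductase and nuclear envelope protein, fell by 0.35, with an adjusted p of 0.056 without the run in the fit. The list had 1 rise without the PALBO array of run 2, 2 without that of run 1 or any AG494 array, and 1 without the run in the fit. Against vehicle 8 genes of the list were lower and 2 higher under PALBO (7.35% and 7.7% of all genes), with a median of -0.19. Under AG494 8 were lower (0.888% of all genes), with a median of -0.23.

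Of 15 genes of metallothioneins, which bind zinc, and of zinc transport, 1 rose and 1 fell, against 3.95% and 4.74% of all genes. The gene that rose, MT1F, was at 8.38, 9.24 and 9.71 under AG494 and 9.97, 10.00 and 10.55 under PALBO, with vehicle at 7.31, 7.38 and 8.53. Both compounds lay above vehicle in each run, PALBO the further, and the compounds differed by 1.06 (SE 0.21, adjusted p = 0.0033). The gene that fell, MT2A, was at 10.65, 10.97 and 11.26 and 10.31, 10.21 and 10.46, a difference of -0.64 (SE 0.11, adjusted p = 0.0015), here with AG494 the higher. The 2 probe sets of MT2A differed by -0.64 and -0.11, and those of MT1F by 1.06 and 0.53. Without the run in the fit the adjusted p was 0.084 for MT1F and 0.16 for MT2A. SLC30A1, the zinc exporter that zinc itself induces, was at 9.56, 9.94 and 10.01 under AG494, 9.83, 10.00 and 9.90 under PALBO and 9.27, 8.83 and 8.78 under vehicle. It was above vehicle under both compounds and did not differ past the threshold between them (0.07, 95% interval -0.21 to 0.36). Wild-type cells given NOSCA were also above the same vehicle arrays, by 0.84 in SLC30A1 (adjusted p = 0.012) and 1.51 in MT1F (adjusted p = 0.0045). MT2A was above vehicle by 0.62 under NOSCA (limma adjusted p = 0.03) and by 0.61 under AG494 (limma adjusted p = 0.011).

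Among the 12 largest rises, KRT80, an epithelial keratin, came first. It was at 6.71, 6.27 and 6.09 under AG494, 8.34, 8.57 and 7.79 under PALBO and 7.91, 6.09 and 6.54 under vehicle, where the array of run 1 lay far above both others. The difference between the compounds was 1.87 (SE 0.26, adjusted p = 0.00019), or 3.66-fold. FLRT1, an adhesion molecule that binds FGF receptors, was at 8.68, 8.06 and 8.14 and 10.18, 9.64 and 9.41, a difference of 1.45 (SE 0.13, adjusted p = 3.1e-06). SYBU, syntabulin, which links synaptic cargo to kinesin, was at 7.57, 7.22 and 7.74 and 8.93, 8.88 and 8.78, a difference of 1.36 (SE 0.10, adjusted p = 1.7e-06). RAB27B, a GTPase of secretory vesicles, differed by 1.27 (SE 0.16, adjusted p = 6.4e-05). AKR1C2, a steroid reductase, rose by 1.10 and its neighbour in the family, AKR1C1, by 0.60. These families have similar sequences, and 2 of the 3 AKR1C2 probe sets had the same sign.

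The other rises were FABP3 (1.30), a carrier of fatty acids, DPF3 (1.15), a chromatin remodelling subunit, IFITM10 (1.15), SUSD2 (1.13), GDF10 (1.09), a ligand of the TGF-beta family, DCLK3 (1.08) and MARCHF4 (1.07), a ubiquitin ligase. DPF3 had an adjusted p of 0.091 without the run in the fit. NDRG1, a gene of hypoxia and differentiation, rose by 0.73 with all 6 probe sets agreeing in sign.

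Among the falls, NIBAN1, a gene of cell stress, was at 7.89, 7.99 and 8.05 under AG494, 5.88, 6.50 and 6.34 under PALBO and 7.91, 7.75 and 8.07 under vehicle. AG494 and vehicle overlapped and PALBO lay below both. The difference was -1.74 (SE 0.14, adjusted p = 2.0e-06), or 3.34-fold. PLCE1, a phospholipase that RAS activates, was at 8.59, 8.55 and 8.78 and 7.44, 6.68 and 6.82, a difference of -1.66 (SE 0.14, adjusted p = 2.1e-06). HERC5, the ligase of the ubiquitin-like protein ISG15, differed by -1.51 (SE 0.24, adjusted p = 0.00066), and ELF4, an ETS factor, by -1.22 (SE 0.10, adjusted p = 2.1e-06). SCARA3, a scavenger receptor, was at 9.65, 9.87 and 10.03 under AG494 and 8.53, 8.61 and 8.80 under PALBO, with vehicle at 9.15, 9.51 and 9.68.

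SCARA3 lay on opposite sides of vehicle, at -0.80 under PALBO (adjusted p = 6.0e-06) and 0.41 under AG494 (adjusted p = 0.016). SCN4B, the sodium channel subunit outside the ion channel list, fell by 1.15. FAT3, a large cadherin, fell by 1.17, but lost its call without the PALBO array of run 3 (adjusted p = 0.055), without the AG494 array of run 1 (0.067) and without the run in the fit (0.062).

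**Figure D5:**
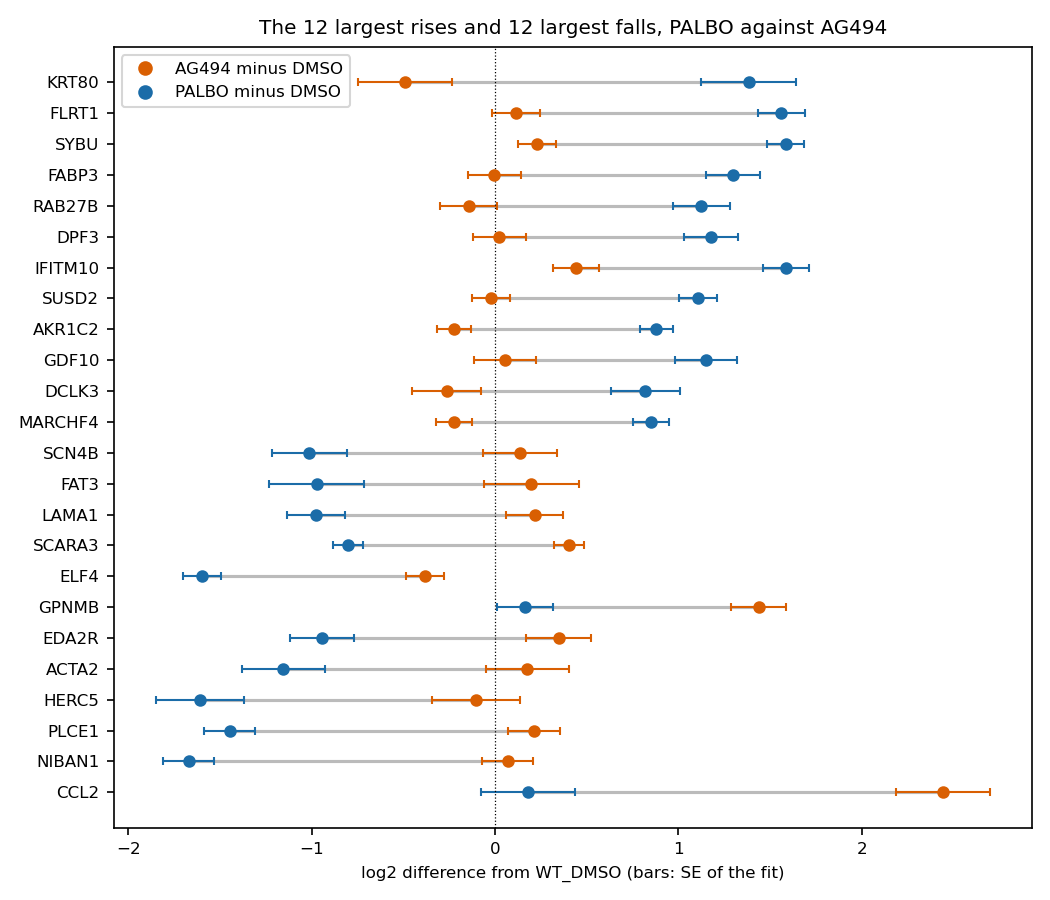
Log2 difference from vehicle (x axis, bars are the SE of the fit) under AG494 and under PALBO for the 12 largest rises and 12 largest falls between the compounds; both colours use the same DMSO arrays. CCL2 stands at 2.44 under AG494 and 0.18 under PALBO, and NIBAN1 at 0.07 and -1.67.

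Other lists are given by their counts, to be read against 3.95% of all genes that rose and 4.74% that fell. Ribosomal proteins (28 measured), respiratory chain subunits (28), fatty acid synthesis genes (16) and immune markers (16) had 0 calls by limma, with medians of 0.04, 0.04, -0.01 and 0.02. An unadjusted p under 0.05 was found for 2, 0, 2 and 1 of their genes. Of 28 genes of the ATF4 stress response 2 rose and 2 fell, and both falls were lost without any single array but the AG494 array of run 3. The rises numbered 0 without that array, and 1 without the PALBO array of run 2 or run 3 or the AG494 array of run 1 or run 2. Of 20 chaperones of the endoplasmic reticulum 3 rose, led by DNAJB9 at 0.52 (SE 0.09, adjusted p = 0.0011), and 1 without the PALBO or the AG494 array of run 2. Of 27 lysosome and autophagy genes 5 rose, by 0.21 to 0.37, and 1, GPNMB, fell. The count of these rises was 0 without the PALBO array of run 2 or the AG494 array of run 1.

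Of 20 genes of amyloid precursor processing 3 rose and 2 fell. APP itself differed by -0.04 (95% interval -0.19 to 0.11). The gamma-secretase genes PSEN2 and PSENEN rose by 0.28 and 0.26, and the amyloid-degrading enzymes MME and IDE fell by 0.43 and 0.18. These 4 calls were lost without the run in the fit (adjusted p 0.064 to 0.38). The rises numbered 1 without any of the PALBO arrays or the AG494 array of run 2 and 0 without the AG494 array of run 1, and no fall was left without any array other than the PALBO array of run 1. Of 11 receptors and ligands of the neurotrophin and GDNF families, 1 rose, GFRA3, and 3 fell, NTRK2, GFRA1 and BDNF. No fall was left without the PALBO array of run 2, the AG494 array of run 1 or the run in the fit, and 1 without any other single array. Of the single arrays, leaving out the PALBO array of run 2 alone kept a rise. NTRK2, the receptor of the neurotrophic factor in the medium, fell by 0.32, but 4 of its 10 probe sets had that sign and their mean differed by 0.04. Its adjusted p was 0.52 without the run in the fit, and 0.065, 0.078 and 0.073 without the PALBO array of run 2, that of run 3 and the AG494 array of run 1. Of 20 Notch genes 2 rose, DTX1 (0.39) and DLL3 (0.37), and 2 fell, NOTCH2 (-0.60) and HES1. DLL3 lost its call without any PALBO array, the AG494 array of run 1 or the run in the fit (adjusted p 0.052 to 0.20). HES1, a Notch target, fell by 0.72 on its brightest probe set, with 2 of 5 probe sets of that sign and an adjusted p of 0.21 for their mean.

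Of 19 genes of the NRF2 antioxidant response 1 rose, AKR1C1, and 2 fell, NQO1, a quinone reductase, by 0.43 and NFE2L2, which encodes NRF2, by 0.21. A single fall was left without any one array except the AG494 array of run 2, and without the run in the fit. Of 19 BMP and ID genes 1 rose, GDF10, and 1 fell, SMAD6, an inhibitor of BMP signalling, by 0.63 (adjusted p = 0.00029). Rises numbered 2 without the AG494 array of run 1, and falls 2 without that of run 2. Of 30 genes of glycolysis and hypoxia 1 rose, NDRG1, and 1 fell, ADM, the vasodilator adrenomedullin, by 0.66 (adjusted p = 0.038), a call lost without any one of the 6 arrays and without the run in the fit.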

How the data were processed

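Amplified total RNA (25 ng per culture) was measured on Affymetrix PrimeView arrays. The authors deposited log2 intensities after RMA normalisation (affy), per the submitters' processing notes, and versions are not given in the sources used here. They ran from 4.143 to 14.37 and were used as deposited. They carry no counts or detection calls, and their precision is limited by the number of arrays.

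Of 49372 probe sets, 79 were controls and not used, 44988 carried 1 symbol in the platform annotation (44961 matched RefSeq by Entrez ID), 1832 carried several and 2473 were not listed. Each gene was read from its brightest single-symbol probe set (mean of the 21 arrays). This gave 18132 genes, 11734 of them with several probe sets, and no dim gene was removed.

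Differences were fitted with limma 3.58.1 in R 4.3.3 (lmFit, eBayes) over all 21 arrays, with 1 coefficient per group and the run as a fixed block (12 residual and 4.64 prior degrees of freedom). Two-sided p-values were adjusted (Benjamini-Hochberg) over all genes of a comparison. "Called", "rose" and "fell" mean an adjusted p under 0.05, and intervals are 95% intervals of the fit. On simulated data with 18132 genes for PALBO against AG494, 36% of changes of 0.3, 78% of 0.5 and 98% of 1 (log2) were recovered, 50 genes each, and 6.02% of calls were false.

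The runs pair the arrays. Deviations from the group means correlated at 0.226 to 0.685 within a run (63 pairs) and at -0.529 to 0.0889 between arrays of other runs and groups (126 pairs), and all 21 arrays were closest to an array of their own run. The PALBO and AG494 arrays of a run correlated at 0.612, 0.535 and 0.529. The 6 arrays held no identical columns, with correlations over genes of 0.992 to 0.997.

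The members and the 32 gene lists (844 measured entries) were chosen with earlier results of these data known. Genes were named by rule: the top 12 by size in each direction, of the called genes with no overlap between the groups' arrays and the same sign in every run, up to 5 called members with the lowest p of each list with at least 2 calls, and a set of genes chosen by hand. Others are given as members of their list. Alternatives were the fit without the run, the run as a random block, only the 12 wild-type or the 6 arrays, every single-symbol probe set or their mean per gene, removal of the dimmest 33.3% of genes, renewed quantile normalisation, arrays centred on their medians, array weights, a prior with trend and robust fitting, a minimum fold of 1.5, and omission of each of the 6 arrays in turn. PALBO in APP-V717F cells was not analysed here. Promoter windows come from RefSeq (GRCh38.p14).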

Additional observations from a re-analysis of the deposited data

Results flagged for a closer look

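The comparisons above left out probe sets that carry several gene symbols or none. Fitted alone in the same way, 221 of 4305 such probe sets (5.13%) were called between PALBO and AG494, 95 higher and 126 lower under PALBO. They are listed here because these probe sets were outside the comparisons, and the share is below the 8.7% of all genes that were called. Some of them read genes that were also measured by a probe set of their own. A probe set shared by KIF4A, a mitotic kinesin, and its copy KIF4B was lower under PALBO by 0.58 on the log2 scale (9.02 ± 0.03 under AG494 and 8.44 ± 0.08 under PALBO, SD, n = 3 each, limma adjusted p = 0.00016). KIF4A's own probe set fell by 0.51 (limma adjusted p = 0.00095). One shared by PDZK1, a scaffold of membrane transporters, and its pseudogene PDZK1P1 was higher under PALBO by 1.39 (limma adjusted p = 2.6e-06). Both were chosen after their values were seen, among the 20 with the lowest p.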

How the results depend on the processing

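Of the 128 named genes that were called, 55 kept their call under every alternative fit in which the gene was tested. The minimum fold of 1.5 and the fit of every probe set were not part of this count. Some of the 55 differed by less than 1.5-fold, such as DTX1 (1.31-fold) and PCNA (1.39-fold). With no replicate block the comparison gave 589 genes (218 higher, 371 lower), all among the 1577, and on the 6 arrays alone with no replicate block 293 (102 and 191). All probe sets gave 3546 calls (1575 and 1971), and a fold of at least 1.5 gave 290 (118 and 172). Leaving out 1 array gave 890 to 1251 calls, 340 to 565 higher and 527 to 713 lower. Against vehicle, no replicate block gave 1265 calls for PALBO and 46 for AG494, and leaving out 1 array gave 1862 to 2690 for PALBO and 79 to 348 for AG494. AG494 had 587 calls without the dimmest genes, 595 with a trended and robust prior and 567 with array weights. Differences that did not pass the test or rested on some probe sets changed sign: NTRK2 to 0.036, ERBB2 to 0.077 and APP to 0.029 when a gene's probe sets were averaged, and RB1 to 0.0039 with centred arrays. On leaving out 1 array RB1 ran from -0.090 to 0.072, ERBB2 from -0.15 to 0.019, ERBB3 from -0.075 to 0.11 and SLC30A1 from -0.12 to 0.19. DHCR7, a sterol enzyme that was not called, was called with array weights (adjusted p = 0.04) and without the PALBO array of run 3 (0.045). The cause of these changes was not tested. Dim genes have no detection call, so a small change close to background cannot be read from these arrays.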
